A study of Mus musculus with 48 samples.

Results

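The 38 genes described here encode proteins of rod and cone photoreceptors, the light-sensing neurons of the retina. They were listed by name for their known roles, with earlier results of these data known. They are 38 of the 22055 genes in the deposited tables, and each was found by its Ensembl identifier through the GENCODE M21 annotation. By their known cell type, 11 were taken as rod genes, 9 as cone genes and 18 as genes used by both cell types, called shared genes here. RNA-seq and Ribo-seq had been carried out on retina, brain, lung, liver, kidney and heart of C57BL/6 wild-type mice, in embryos of day 15.5 (E15.5) and in young adults on day 42 after birth (P42). Each tissue, stage and assay had 2 libraries, labelled as biological replicates, which makes 24 groups and 48 libraries. The sources used here do not give the sex of the animals or whether a library pooled animals or litters. RNA-seq counts fragments of messenger RNA, and Ribo-seq counts the short fragments that ribosomes protect, called footprints. Values are in TPM, in which reads are divided by gene length and scaled to a fixed total for each library.

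Rods see in dim light and cones in bright light and in colour. In both, a light-activated visual pigment switches on the G protein transducin, transducin activates the cyclic GMP phosphodiesterase PDE6, and the fall in cyclic GMP closes the cation channel of the outer segment, the ciliary compartment that is packed with membrane discs. An opsin kinase and an arrestin then silence the pigment, RGS9 speeds the shut-off of transducin, and guanylate cyclases with their calcium-sensing activators restore cyclic GMP. Rods and cones use paralogous genes for many of these steps. In the mouse, cones are born before birth and most rods around and after birth, and outer segments grow in the weeks after birth under the control of the transcription factors Crx, Nrl and Nr2e3.

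Because the members rose together in retina, their promoters were searched for the core motif of the Crx and Otx2 homeobox factors, TAATCC, on both strands. RefSeq promoter sequences of GRCm38.p6 were matched for 29 of the 38 genes, and the 250 bases before the RefSeq transcription start were searched. The motif was present in 11 of the 29 member promoters (37.9%), with 4 of 8 rod, 1 of 6 cone and 6 of 15 shared genes, and in 6.38% of all 27025 promoters of the same length. The core site of the Maf and Nrl family, TGCTGA, was present in 6 of the 29 (20.7%) and in 15.8% of all promoters. The letters of the 2 motifs do not allow their exact matches to share bases. Rbp3 and Sag held both motifs. The 130 bases before the RefSeq start of 3 genes are shown to let their TAATCC matches be compared, with the match in capitals, read 5′ to 3′ on the gene's own strand, where GGATTA is the same motif on the other strand.
Crx: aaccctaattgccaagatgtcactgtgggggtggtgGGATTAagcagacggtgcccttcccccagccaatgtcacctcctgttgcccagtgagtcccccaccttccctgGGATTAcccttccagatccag
Sag: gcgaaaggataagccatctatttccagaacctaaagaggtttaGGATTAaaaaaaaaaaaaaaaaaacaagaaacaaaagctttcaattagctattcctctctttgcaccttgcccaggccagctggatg
Rbp3: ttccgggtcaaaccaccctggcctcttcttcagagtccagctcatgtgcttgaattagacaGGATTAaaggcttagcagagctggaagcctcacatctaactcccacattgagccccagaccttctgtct
The Crx stretch lies at chr7:15879956-15880085 on the minus strand, the Sag stretch at chr1:87803550-87803679 and the Rbp3 stretch at chr14:33953873-33954002, the last 2 on the plus strand. The Sag and Rbp3 stretches lie upstream of the gene as GENCODE M21 annotates it, and the last 13 bases of the Crx stretch lie inside the annotated gene. Crx, a homeobox factor of both cell types, held 2 matches, whose first bases lie 94 and 21 bases before the start. The match began 87 bases before the start in Sag (rod arrestin) and 69 in Rbp3 (a retinoid carrier of the space around outer segments). A match describes these letters and is not a measured binding site.

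Replicates of a group correlated across genes at Pearson r of 0.970 to 0.999 on the log2(TPM + 1) scale, and no library repeated another. The listed genes summed to between 23.1% and 93.4% of the full TPM total of a library, lower in Ribo-seq than in RNA-seq, and read counts per library are unknown because only TPM values were used. The 4 tables, 1 for each stage and assay, were normalized separately, so a level set across stages or assays compares 2 tables, and stage and table cannot be told apart. In P42 retina the RNA-seq libraries also held marker messages of other cell types of the eye. Summed Müller glia markers reached 3146 and 3385 TPM, of which Glul, also high in P42 brain, gave 1914 and 1990 TPM. Bipolar markers reached 1086 and 1207 TPM, pigment epithelium markers 127 and 176 TPM, and lens crystallins and other lens markers 184 and 494 TPM. The second P42 retina library was thus higher in lens and pigment epithelium markers than the first, and their part in the results was not tested. In bulk tissue, fewer cells of a type and less RNA per cell cannot be told apart.

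In P42 retina the photoreceptor genes were among the most abundant messages. Together the 38 genes made up 7.96% ± 0.17 (SD, n = 2) of the summed RNA-seq TPM of the listed genes and 9.79% ± 0.96 of the summed footprint TPM. The shares of the assays have different bases, since the listed genes held less of the full TPM total in Ribo-seq. Of the full total, the footprint share was the smaller one. Rod genes took 3.91% ± 0.27 of the RNA-seq sum, shared genes 3.83% ± 0.09 and cone genes 0.221% ± 0.007. By footprint, shared genes took 4.82% ± 0.40, rod genes 4.65% ± 0.59 and cone genes 0.324% ± 0.036. The rod and shared sums lay within their spread of each other in both assays, and the cone sum was far below them. At E15.5 the 38 genes made up 0.0518% ± 0.0069 of the RNA-seq sum and 0.0476% ± 0.0104 of the footprint sum in retina.

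The highest member was Gnat1, the rod transducin alpha subunit (GRCm38 chr9:107674474-107679712, minus strand), at 22299.6 and 18669.9 TPM by RNA-seq and 6258 and 5724 TPM by footprint in the 2 P42 retina libraries. Prph2 and Rom1, the tetraspanins of the disc rim, followed at 5777 and 6247 TPM and 4278 and 4827 TPM by RNA-seq. Their footprint levels were 1243 and 1244 TPM and 1347 and 1390.0 TPM. Gnat1 alone was thus more abundant than the next 2 members together. By footprint, Pdc (phosducin, which binds the transducin beta and gamma subunits) at 2673 and 2345 TPM and Rcvrn (recoverin, the calcium-dependent inhibitor of the opsin kinase) at 2489.9 and 2097 TPM ranked just after Gnat1. The lowest members were 3 cone genes. Cnga3 and Cngb3, the subunits of the cone cyclic GMP-gated channel, lay at 16.5 and 12.3 TPM and 20.5 and 15.8 TPM by RNA-seq, and Pde6h, the inhibitory subunit of cone PDE6, at 70.6 and 75.2 TPM. All 38 were called higher in P42 retina than in each of the other 5 tissues by both assays, where 15.1% of 17171 tested genes by RNA-seq and 2.87% of 16715 by footprint were called. The count is a description, since 10 members by RNA-seq and 14 by footprint passed the filter of 1 TPM in 2 libraries only through P42 retina, where no other call was open to them. The smallest RNA-seq margin over another tissue was that of Gngt2, the cone transducin gamma subunit, at 1.62 on the log2 scale against lung.

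**Figure D1:**
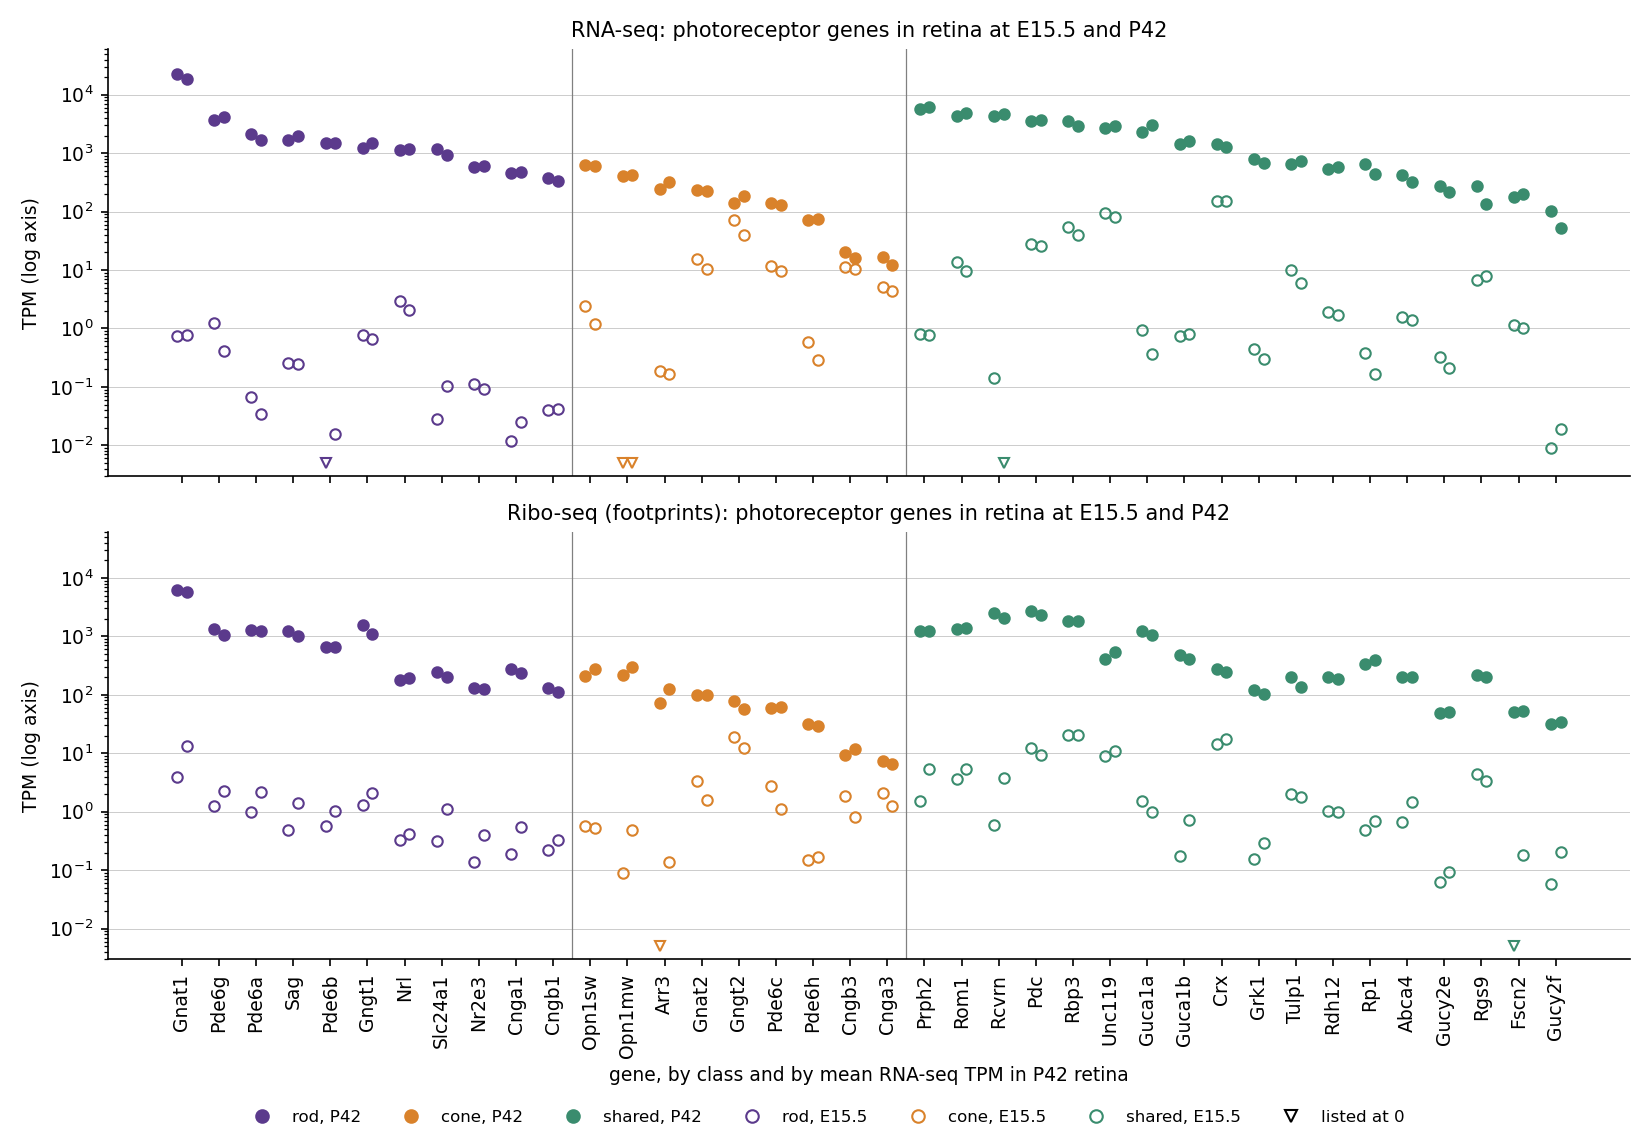
TPM (log axis) of the 38 genes in each retina library, by RNA-seq above and by footprint below, with E15.5 libraries as open and P42 libraries as filled circles, and triangles for genes listed at 0. Rod genes climb from mostly under 1 TPM by RNA-seq to 336 TPM or more, while several cone and shared genes already stand above 10 TPM at E15.5.

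Between E15.5 and P42 nearly the whole set rose in retina. By RNA-seq 37 of 38 members were called higher at P42 and none lower, against 18.6% of 14015 tested genes called higher and 24.7% called lower. By footprint 38 of 38 were called higher, against 21.3% of 11974 genes higher and 16.2% lower. A call needed an adjusted p below 0.05 in limma and a log2(TPM + 1) difference of at least 1, which understates the change of genes near 0. The same 10 and 14 members that passed the filter only through P42 retina could only be called higher. A stage test also needed a mean of 1 TPM over the retina libraries of its assay. The 21 members by RNA-seq and 17 by footprint with an E15.5 retina mean below 1 TPM thus could not be called lower. These counts too are a description.

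The rod cascade was nearly silent at E15.5. Gnat1 was at 0.739 and 0.780 TPM in the 2 E15.5 libraries and Gngt1, the rod transducin gamma subunit, at 0.786 and 0.672 TPM before 1232 and 1493 TPM at P42. The catalytic PDE6 subunits Pde6a and Pde6b were at 0.0660 and 0.0348 TPM and 0 and 0.0157 TPM at E15.5 and at 2166 and 1696 TPM and 1518 and 1483 TPM at P42. The inhibitory subunit Pde6g went from 1.22 and 0.408 TPM to 3635 and 4099.9 TPM. In each of these 5 genes both P42 libraries stood far above both E15.5 libraries. Among the channel and exchanger genes, Cnga1 went from 0.0118 and 0.0249 to 465 and 474 TPM, Cngb1 from 0.0399 and 0.0421 to 379 and 336 TPM, and the sodium, calcium and potassium exchanger Slc24a1 from 0.0286 and 0.106 to 1181 and 939 TPM. Sag, which binds the phosphorylated rod pigment, went from 0.260 and 0.248 to 1658 and 1970.2 TPM. The RNA-seq differences of the 11 rod genes ran from 8.38 for Nrl to 13.50 for Gnat1 on the log2 scale, with a median of 9.95, where the median of all tested genes was -0.23. For Gnat1 the difference had an SE of 0.17 (limma adjusted p = 3.45e-35).

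Footprints of the rod genes rose with their messages. Gnat1 went from 4.00 and 13.2 to 6258 and 5724 TPM, Gngt1 from 1.28 and 2.12 to 1556 and 1084 TPM and Pde6g from 1.27 and 2.23 to 1315 and 1056 TPM. Pde6a went from 0.983 and 2.21 to 1297 and 1241 TPM and Pde6b from 0.574 and 1.05 to 646 and 663 TPM. In all 5 the second E15.5 library was above the first, and neither came near the P42 libraries. Cnga1 reached 273 and 233 TPM at P42 from 0.187 and 0.549 TPM, Cngb1 129.7 and 111 TPM from 0.217 and 0.331 TPM and Slc24a1 248 and 204 TPM from 0.317 and 1.11 TPM. Sag went from 0.494 and 1.39 to 1239.6 and 1013 TPM. The log2 differences by footprint ran from 6.57 for Cngb1 to 9.47 for Gnat1 (SE 0.38, limma adjusted p = 1.97e-14), with a median of 8.51, where the median of all tested genes was 0.08.

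Of the cone genes, 5 had smaller differences than any rod gene and started from higher levels. Gngt2 was at 71.1 and 39.2 TPM at E15.5 and 139 and 188 TPM at P42, a log2 difference of 1.59 (SE 0.24, limma adjusted p = 5.79e-07). Gnat2, the cone transducin alpha subunit, went from 15.4 and 10.4 to 238 and 228 TPM, and Pde6c, the catalytic subunit of cone PDE6, from 11.6 and 9.49 to 139 and 128 TPM. For these 3 the stages did not overlap, but their E15.5 levels were already above those of every rod gene. The cone channel genes moved least: Cnga3 went from 5.09 and 4.30 to 16.5 and 12.3 TPM (log2 1.43, SE 0.13), and Cngb3 from 11.4 and 10.5 to 20.5 and 15.8 TPM. Cngb3 was the member without a call by RNA-seq, at a log2 difference of 0.67 (SE 0.12, limma adjusted p = 1.05e-05), under the fold needed. Its footprints went from 1.87 and 0.807 to 9.24 and 11.7 TPM and were called (log2 2.32, SE 0.14, limma adjusted p = 2.17e-11). Footprints of Gnat2 went from 3.35 and 1.56 to 97.6 and 98.5 TPM, those of Gngt2 from 18.7 and 12.1 to 77.4 and 57.2 TPM and those of Pde6c from 2.74 and 1.13 to 60.4 and 62.3 TPM. These 3 and Cnga3, at 2.10 and 1.26 and then 7.25 and 6.45 TPM, did not overlap between the stages. The median RNA-seq difference of the 9 cone genes was 4.10 and the median footprint difference 4.76.

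A second group of cone genes started as low as the rod genes. The opsin Opn1mw, the pigment of middle wavelengths, was listed at 0 in both E15.5 RNA-seq libraries and stood at 413 and 429.8 TPM at P42, so no fold is given. Opn1sw, the pigment of short wavelengths, went from 2.39 and 1.17 to 629.9 and 595 TPM. Cone arrestin, Arr3, went from 0.190 and 0.167 to 242 and 327 TPM and Pde6h from 0.590 and 0.291 to 70.6 and 75.2 TPM. By footprint, Opn1mw went from 0.0908 and 0.487 to 218 and 298 TPM, Opn1sw from 0.573 and 0.531 to 210.3 and 274 TPM and Arr3 from 0 and 0.138 to 71.7 and 125 TPM. By RNA-seq Opn1sw and Arr3 thus rose by 7.82 and 7.90 on the log2 scale, just under the smallest rod difference of 8.38, and Pde6h by 5.69. The fitted difference of Opn1mw, 8.72, lay above the 2 lowest rod genes, Nrl and Cngb1, but rests on the pseudocount. By contrast, Gnat2, Gngt2, Pde6c, Cnga3 and Cngb3 lay between 0.67 and 4.10. Exons of Opn1sw (GRCm38 chr6:29376671-29388468) overlap Calu, those of Gngt2 (chr11:95837216-95845734) overlap Abi3 and those of Pde6h (chr6:136923832-136968865) overlap Arhgdib on the other strand. Exons of Nr2e3 (chr9:59942771-59960659) overlap Gm15507 on the same strand. Strand use in the counting is not stated, so reads of these pairs cannot be told apart. By RNA-seq in P42 retina Abi3 was at 9.55 and 10.9 TPM and Arhgdib at 13.4 and 15.3 TPM, below Gngt2 and Pde6h. In E15.5 retina Abi3 was at 1.99 and 1.31 TPM, below Gngt2, but Arhgdib at 3.76 and 3.97 TPM, above Pde6h. Levels of Calu and Gm15507 are not given here.

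The 3 transcription factors differed in their start. Crx was already at 154 and 153 TPM at E15.5 and reached 1459.9 and 1274 TPM at P42, a log2 difference of 3.14 (SE 0.15). Nrl, the leucine-zipper factor of rod fate, went from 2.93 and 2.08 to 1127 and 1194 TPM (log2 8.38, SE 0.13), and its target Nr2e3, a nuclear receptor that represses cone genes, from 0.111 and 0.0935 to 591 and 613 TPM (log2 9.09, SE 0.12). Their footprints followed the same order at E15.5, with Crx at 14.7 and 17.7 TPM, Nrl at 0.332 and 0.420 TPM and Nr2e3 at 0.140 and 0.403 TPM. At P42 the footprint levels were 279.9 and 241, 182 and 191 and 129.7 and 124 TPM. Crx was the highest of the 38 at E15.5 by RNA-seq.

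Among the other 17 shared genes, the E15.5 level also varied. Rbp3 was at 53.7 and 39.2 TPM at E15.5 and 3532 and 2882 TPM at P42, and Pdc went from 28.3 and 25.5 to 3594 and 3712 TPM. Unc119, a chaperone that carries lipid-modified transducin, went from 95.7 and 81.8 to 2645 and 2940.1 TPM, and Tulp1, which is needed for protein transport to outer segments, from 10.1 and 5.94 to 658 and 726 TPM. These 4 stood above 5 TPM in each E15.5 library. Rom1 went from 13.8 and 9.50 TPM and Rgs9 from 6.66 and 7.96 TPM to 279 and 135 TPM, where the 2 P42 libraries of Rgs9 differed by more than those of most members. By contrast, Rcvrn went from 0.144 and 0 to 4336 and 4613 TPM and Prph2 from 0.820 and 0.787 TPM. The opsin kinase Grk1, the cyclases Gucy2e and Gucy2f, their activators Guca1a and Guca1b, and Rp1, a microtubule protein of the outer segment, were all under 1 TPM in every E15.5 RNA-seq library of retina. Abca4 (a retinoid transporter of disc membranes), Rdh12 (a retinol dehydrogenase) and Fscn2 (a retinal fascin) lay between 1.01 and 1.94 TPM there. At P42 Grk1 was at 799 and 673 TPM, Gucy2e at 276 and 217 TPM and Gucy2f at 102 and 52.3 TPM. Guca1a stood at 2307 and 3091 TPM, Guca1b at 1453 and 1611 TPM and Rp1 at 649 and 448 TPM. The activators were thus higher than the cyclases that they regulate. Abca4 reached 423 and 323 TPM, Rdh12 540.4 and 574 TPM and Fscn2 179 and 204 TPM. The log2 differences of the 18 shared genes ran from 3.14 for Crx to 12.03 for Rcvrn by RNA-seq, with a median of 7.41, and their footprint median was 6.57.

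Rod and cone genes for the same step were compared as 8 pairs in each retina library, with Pde6a and Pde6b both set against Pde6c. At P42 every pair favoured the rod gene in each of the 4 libraries. The ratio of rod to cone TPM was 93.9 and 81.8 by RNA-seq for Gnat1 over Gnat2 and 64.1 and 58.1 by footprint. For Pde6g over Pde6h it was 51.5 and 54.5 and 41.1 and 36.6. These were the widest gaps at P42. The channel pairs followed, with 28.2 and 38.5 by RNA-seq and 37.7 and 36.2 by footprint for Cnga1 over Cnga3, and 18.5 and 21.2 and 14.03 and 9.54 for Cngb1 over Cngb3. The ratio of Pde6a to Pde6c was 15.5 and 13.3 by RNA-seq and 21.5 and 19.9 by footprint, and that of Pde6b to Pde6c 10.9 and 11.6 and 10.7 and 10.6. The narrowest RNA-seq gaps were those of Gngt1 over Gngt2, at 8.84 and 7.96, and Sag over Arr3, at 6.86 and 6.02. Footprints gave 20.1 and 18.9 and 17.3 and 8.08 for these pairs. The replicates of a pair differed most in Sag over Arr3 by footprint.

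At E15.5 the order was turned in most pairs by RNA-seq. The rod to cone ratio was 0.0482 and 0.0753 for Gnat1 over Gnat2, 0.0111 and 0.0171 for Gngt1 over Gngt2 and 0.00570 and 0.00367 for Pde6a over Pde6c. The channel pairs were at 0.00232 and 0.00579 and 0.00351 and 0.00400. In Pde6g over Pde6h (2.08 and 1.40) and Sag over Arr3 (1.37 and 1.48) the rod gene was higher, with all 4 genes near or under 1 TPM. Over the whole lists, the summed rod TPM was 0.0526 and 0.0596 times the summed cone TPM at E15.5 and 19.0 and 16.5 times at P42 by RNA-seq. The mean log2 ratio was -4.16 ± 0.13 (SD, n = 2) at E15.5 and 4.15 ± 0.14 at P42. By footprint the P42 ratios were 16.9 and 12.1 (log2 3.84 ± 0.34), while the E15.5 ratios, 0.331 and 1.37, stood on either side of 1. With 2 libraries a group no exact test could pass the threshold, and none was run.

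**Figure D2:**
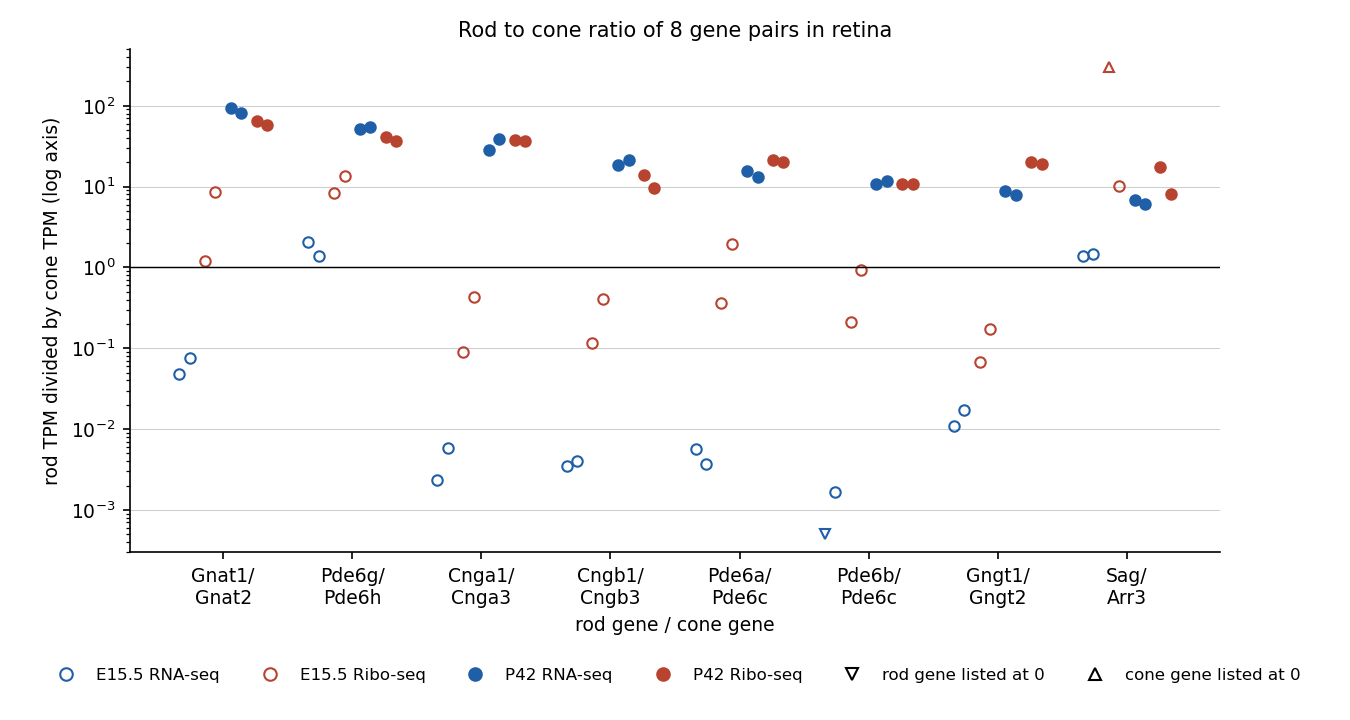
Rod TPM divided by cone TPM (log axis) for 8 pairs of genes in each retina library, in the order of the P42 RNA-seq ratio, with E15.5 open and P42 filled, RNA-seq in blue and footprints in red. All P42 points lie above 1, between 6.02 and 93.9, and in 6 of the 8 pairs all E15.5 RNA-seq points lie below 1.

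Some photoreceptor messages already set the E15.5 retina apart from other tissues. By RNA-seq 9 of the 38 were called higher in E15.5 retina than in each other tissue, against 2% of 17171 tested genes. They were Crx (a log2 difference of at least 6.63 from any other tissue), Rbp3 (5.32), Pdc (4.77), Cngb3 (3.30), Cnga3 (2.17), Tulp1 (2.05), Gngt2 (1.76), Nrl (1.42) and Gnat2 (1.29). Thus 4 were cone genes, 4 shared and 1, Nrl, a rod gene. In the other direction, Pde6h was called lower in E15.5 retina than in liver (log2 difference of -2.63, SE 0.20), heart, kidney and lung, and Slc24a1 lower than in liver (-2.02, SE 0.15). The reads of Pde6h cannot be told apart from those of Arhgdib, which stood at 172 and 151 TPM in E15.5 liver.

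By footprint 13 members were called higher in E15.5 retina than in each other tissue, against 0.927% of 16715 tested genes. Crx, Rbp3, Pdc, Cnga3, Cngb3 and Gngt2 were among those called by RNA-seq too. The other 7 were Rom1 and 6 genes with a mean under 1 TPM by RNA-seq: Gnat1, Gngt1, Pde6a, Pde6g, Prph2 and Rcvrn. Gnat1 had footprint levels of 4.00 and 13.2 TPM there beside 0.739 and 0.780 TPM by RNA-seq, Prph2 1.53 and 5.35 beside 0.820 and 0.787 TPM, and Rcvrn 0.591 and 3.71 beside 0.144 and 0 TPM. In each the second footprint library was the higher. The same libraries held the 11 rod genes at a narrow share of their P42 retina level: 0.0438% to 0.180% (median 0.0968%) in the first and 0.123% to 0.493% (median 0.217%) in the second. By RNA-seq the median share was 0.0112% and 0.0105%. Without the 6 genes under 1 TPM by RNA-seq, 7 members remained called by footprint. What gives these footprints was not tested.

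A like pattern appeared in P42 kidney. All 11 rod genes had footprints in both kidney libraries, at 0.0841% to 0.380% (median 0.129%) and 0.114% to 0.324% (median 0.153%) of their P42 retina level. None of the 38 members was at 0 in these footprint libraries, while 9 and 8 were at 0 in the kidney RNA-seq libraries. The rod medians by RNA-seq there were 0.00352% and 0.00421%. Pdc had footprint levels of 3.62 and 3.52 TPM in P42 kidney, Rcvrn 3.24 and 3.82 TPM, and Rbp3 2.63 and 3.13 TPM, and all 3 were listed at 0 in both kidney RNA-seq libraries. Rod medians in the footprint libraries of the other P42 tissues were lower, between 0.0149% in a lung and 0.0620% in a brain library. In P42 brain the RNA-seq medians were 0.0444% and 0.0533%, above those of the other RNA-seq libraries, and the pineal markers Tph1, Aanat and Asmt stood at 0 to 0.219 TPM in them. The other listed pineal markers stood there at 0.0117 to 0.999 TPM. What gives these values was not tested.

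**Figure D3:**
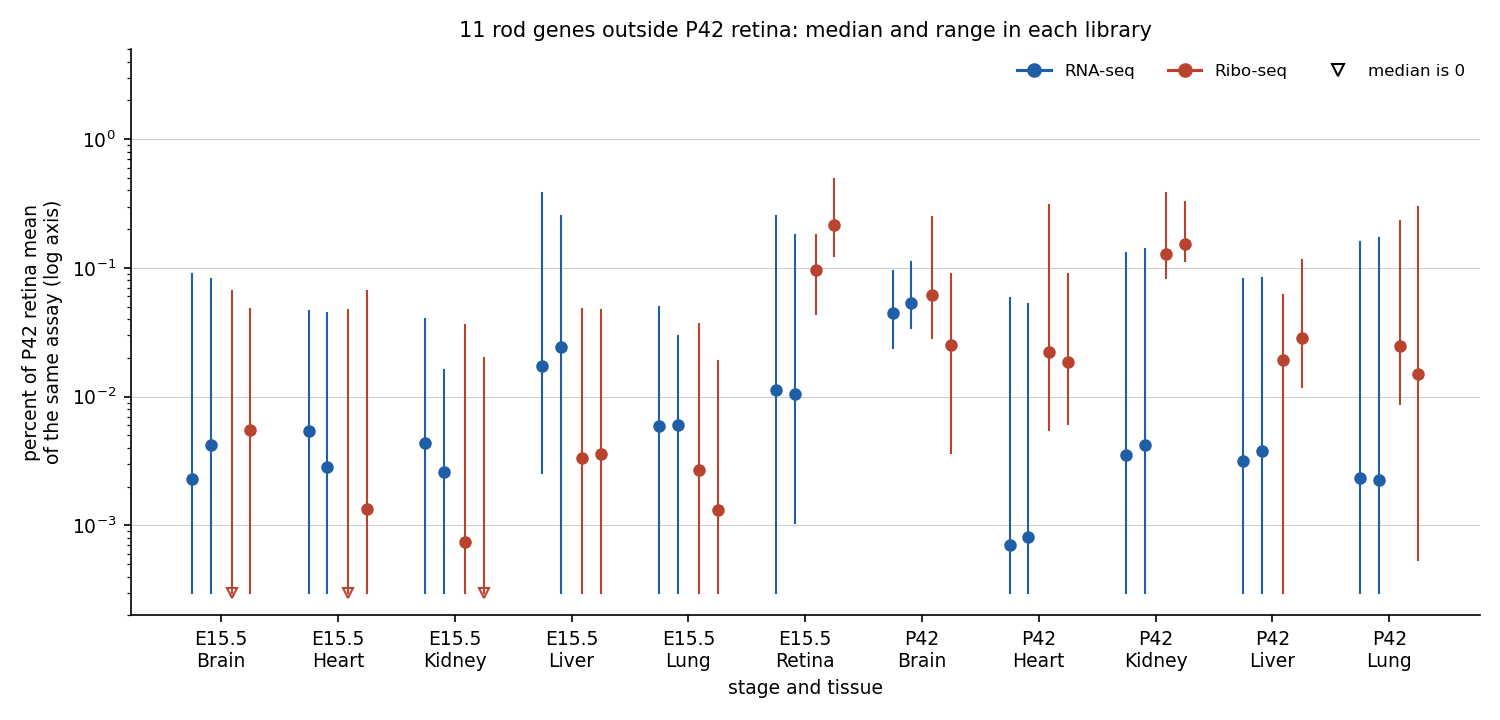
Level of the 11 rod genes in each library outside P42 retina, as a percent of the mean P42 retina level of the same assay (log axis), with the median as a point and the lowest to highest gene as a line, RNA-seq in blue and footprints in red, and lines cut at the lower edge where a gene is listed at 0. The footprint medians of E15.5 retina (0.0968% and 0.217%) and P42 kidney (0.129% and 0.153%) lie above those of the other footprint libraries.

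The ratio of footprint to RNA-seq TPM, a measure of ribosome load per message, was then compared with that of the median gene. In P42 retina the median ratio over 11349 tested genes was 0.271, and log2(TPM + 1) differences are given against the median gene of the fit. Of the 38 members 6 were called higher and 0 lower, against 11.3% of tested genes higher and 14.9% lower. With a pseudocount of 4 the counts were 2 higher (Rgs9 and Gngt1) and 4 lower, and without a filter 1 (Rgs9) and 9. The 6 were Rgs9 (log2 difference 1.81, SE 0.19), Gngt1 (1.64, SE 0.15), Pdc (1.16, SE 0.17), Rp1 (1.15, SE 0.13), Pde6a (1.11, SE 0.16) and Sag (1.01, SE 0.15). Their ratios in the 2 replicates were 0.774 and 1.51 for Rgs9, 1.26 and 0.726 for Gngt1 and 0.744 and 0.632 for Pdc. The 2 ratios of a gene match libraries by replicate number, which is not known to pair samples, so their spread depends on that matching. As matched, the replicates of Rgs9 and Gngt1 differed by more than 1.7-fold, and the mean ratios were 1.01 and 0.969. Each assay was scaled to its own total, so a ratio near 1 is not an equal amount of footprint and message. Rp1 was at 0.520 and 0.893, Pde6a at 0.599 and 0.732 and Sag at 0.748 and 0.514. At the other end, Grk1 was at 0.154 and 0.156 (log2 difference -0.98, SE 0.10), Nrl at 0.162 and 0.160 (-0.93, SE 0.12) and Unc119 at 0.155 and 0.181 (-0.88, SE 0.24), none of which reached the fold for a call.

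By class, the 9 cone genes all lay above the median gene, between 0.14 for Arr3 and 0.98 for Opn1mw, with a median of 0.47, and none was called. The rod genes were split. The transducin, PDE6, channel and arrestin genes lay between -0.07 for Gnat1 and 1.64 for Gngt1, while Slc24a1 (-0.52), Nr2e3 (-0.54) and Nrl (-0.93) lay lower. The 3 transcription factors were all under the median gene, with Crx at -0.69 (SE 0.18). The shared genes ranged from -0.98 to 1.81 with a median of 0.07, and 9 of 18 lay above the median gene. Across the 38 members the difference had Pearson r of 0.16 and Spearman rho of 0.21 with the coding percent of the exons, and -0.22 and -0.19 with the log2 RNA-seq level. These correlations are across genes, which are not replicates. TPM divides by gene length, and footprints fall on the coding part, which made up 6.3% of the exon length of Gngt1 and 39.8% of that of Gnat1. Without the step that sets the median gene to 0, no member was called higher and 25 were called lower.

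**Figure D4:**
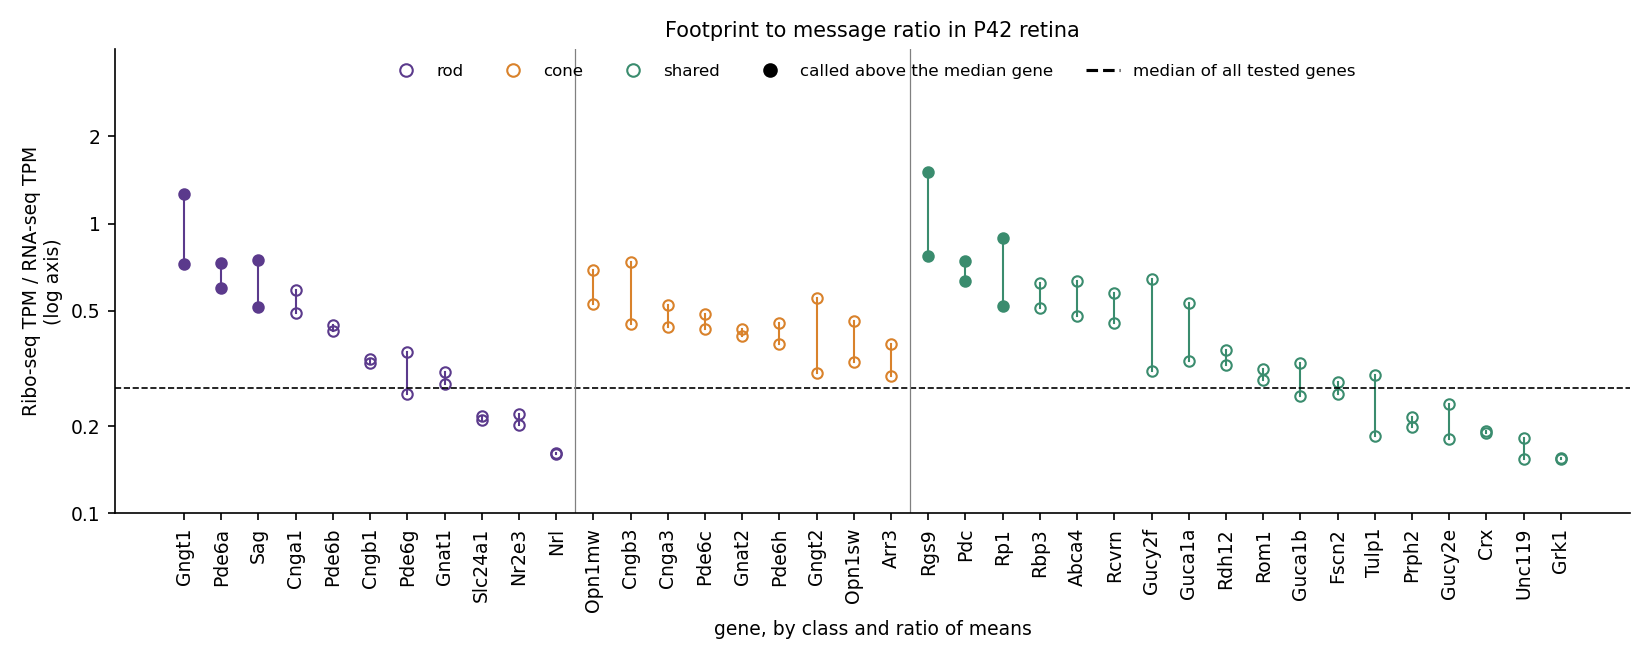
Footprint TPM divided by RNA-seq TPM (log axis) of each gene in the 2 P42 retina replicates, joined by a line, with filled circles for the 6 genes called above the median gene and a dashed line at the median ratio of all tested genes, 0.271. Libraries are matched by replicate number, which is not known to pair samples. As matched, all 9 cone genes lie above the dashed line in both replicates, and Grk1, Nrl and Unc119 lie lowest.

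The change of this ratio with age could be tested for 11 members with at least 5 TPM by RNA-seq at both stages, 4 cone and 7 shared genes. Cngb3 alone was called, with a log2 change of 1.65 (SE 0.19, limma adjusted p = 3.06e-08), against 12.1% of 10199 tested genes called higher and 1.95% lower and a median change of 0.39. The other 10 ran from -0.52 for Rom1 to 0.91 for Pde6c. With a pseudocount of 4 the Cngb3 change was 0.88 and not called, and with the 5 TPM filter it was not tested, so that no member was called higher in either case. No rod gene was high enough at E15.5 to be tested. With single retina libraries left out, between 1 and 4 members were called higher. Without the first E15.5 footprint library it was 4, without the second E15.5 RNA-seq library 3, and without the first P42 RNA-seq library 2.

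Outside retina, 25 of 41 tests of a member between the stages gave a call by RNA-seq, 14 higher and 11 lower at P42. By footprint 21 of 31 did, 15 higher and 6 lower. Calls were common among all tested genes too. By RNA-seq 2.73% (heart) to 13.4% (liver) were called higher and 36% (brain) to 74.6% (heart) lower. By footprint 10.2% (heart) to 20.2% (brain) were called higher and 17.7% (brain) to 50.6% (heart) lower. Most member levels were far below those of retina. Of the RNA-seq calls, 4 of the 14 and 7 of the 11 were of genes that reached 1% of their P42 retina mean at either stage. Of the footprint calls, 4 of 15 and 6 of 6 did. In brain 8 of 12 tested members were called higher by RNA-seq and 1 lower, against 11.7% and 36% of tested genes. Rgs9 went from 6.36 and 5.97 TPM in E15.5 brain to 35.5 and 30.8 TPM at P42 (log2 2.25, SE 0.21), and its footprints from 3.16 and 3.29 to 25.03 and 23.5 TPM. RGS9 also acts in striatal neurons, so this gene is not particular to photoreceptors. Gnat1 rose from 0.438 and 0.534 to 7.48 and 10.1 TPM, and Rom1 from 2.03 and 2.87 to 12.2 and 12.7 TPM. Gngt2, Guca1a, Pde6g, Prph2 and Sag were called higher too, at P42 levels of 1.38 to 5.28 TPM. The summed markers of the pineal gland, whose cells share photoreceptor genes, were 2.89 and 2.91 TPM in P42 brain. Chrna3 gave 0.963 and 0.999 TPM of this sum and Gch1 0.706 and 0.615 TPM. Gch1 is not particular to that gland, at 63.0 and 76.6 TPM in P42 liver.

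In lung, 1 of 7 tested members was called higher and 1 lower by RNA-seq, against 10.1% and 53.5% of tested genes. Gngt2 rose there from 9.71 and 9.46 to 50.1 and 54.0 TPM (log2 2.32), and its footprints from 2.35 and 2.95 to 30.8 and 23.7 TPM (log2 2.95). The lung levels at P42 were 31.8% of the retina mean by RNA-seq and 40.5% by footprint, the highest share of any member in another tissue. Abi3 on the other strand went from 13.9 and 14.2 to 37.8 and 33.4 TPM by RNA-seq in lung, and its reads cannot be told apart from those of Gngt2. By footprint Pde6h, Rgs9 and Rp1 were also called higher in lung, 4 of 7 tested against 18.6% of tested genes, and none was called lower, against 22.8%.

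In liver, 1 of 9 tested members was called higher and 6 lower by RNA-seq, against 13.4% and 47% of tested genes. Pde6c fell from 20.4 and 15.3 TPM in E15.5 liver to 6.31 and 5.49 TPM at P42, and by footprint from 9.69 and 7.996 to 2.82 and 3.86 TPM. At E15.5 this cone gene was higher in liver than in retina by footprint (log2 difference of -1.80 for retina against liver, SE 0.19). Slc24a1 fell from 4.08 and 2.66 to 0.00906 and 0.00804 TPM, and Pde6h from 8.17 and 7.59 to 0.572 and 1.00 TPM, beside Arhgdib, which went from 172 and 151 to 9.66 and 15.2 TPM. Gnat2 fell from 5.70 and 3.62 to 0.678 and 0.518 TPM, and Rom1 from 6.33 and 6.70 to 1.49 and 2.03 TPM. Gnat1 rose from 1.22 and 0.717 to 16.9 and 17.2 TPM (log2 3.21), its highest RNA-seq level outside retina, and its footprints from 0.171 and 0.258 to 3.69 and 6.84 TPM. No other rod gene was called higher in liver.

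In heart 2 of 6 tested members were called higher and 2 lower by RNA-seq, against 2.73% and 74.6% of tested genes. Rom1 rose from 4.04 and 3.03 to 15.6 and 14.2 TPM and Cngb3 from 0.203 and 0.212 to 2.12 and 2.01 TPM, and Abca4 fell from 2.04 and 2.11 to 0.431 and 0.320 TPM. The Abca4 difference of -1.16 turned to 0.45 when centred on the median gene, which moved by -1.61 in heart. In kidney Pde6a rose from 0.105 and 0.0680 to 2.54 and 2.72 TPM and Abca4 from 0.467 and 0.288 to 1.69 and 2.75 TPM, 2 of 7 tested against 13.1% of tested genes, and 1 was called lower, against 43.9%. By footprint 7 of 11 tested members were called higher in kidney, against 12.2% of tested genes. They were Gnat1, Pdc, Pde6a, Prph2, Rbp3, Rcvrn and Rom1, all below 1% of their retina level, and Pdc, Prph2, Rbp3 and Rcvrn were listed at 0 by RNA-seq in P42 kidney. In brain and liver 2 of 3 and 1 of 6 members were called higher by footprint and in heart 1 of 4, against 20.2%, 10.3% and 10.2% of tested genes. Members called lower by footprint numbered 1 in brain, 1 in heart, 1 in kidney and 3 in liver, against 17.7%, 50.6%, 40.2% and 44% of tested genes.

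The stage change in retina was larger than the mean change of the other 5 tissues for 36 of 38 members by RNA-seq, against 34.9% of 17171 genes called, and for 38 by footprint, against 25.4% of 16715. These counts hold the 10 and 14 members that passed the filter only through P42 retina and are a description. The 2 members without a call were Gngt2 at 0.67 (SE 0.28) and Cngb3 at 0.43 (SE 0.12) on the log2 scale. Unc119 went the other way from retina in every other tissue. It was called lower at P42 by RNA-seq in brain (-1.18), heart (-2.89), kidney (-2.45), liver (-1.10) and lung (-1.09), and by footprint in brain, heart, kidney and liver. In heart it fell from 33.0 and 31.2 TPM to 3.59 and 3.33 TPM, and in brain from 73.7 and 74.7 to 29.6 and 35.2 TPM. At E15.5 retina was above brain by 0.25 on the log2 scale by RNA-seq (SE 0.19), which was not called. The liver fall turned to 0.017 under median-of-ratios scaling. The lung fall turned to 0.17 under that scaling and to 0.018 when the contrast was centred on the median gene, which itself moved by -1.11 in lung.

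**Figure D5:**
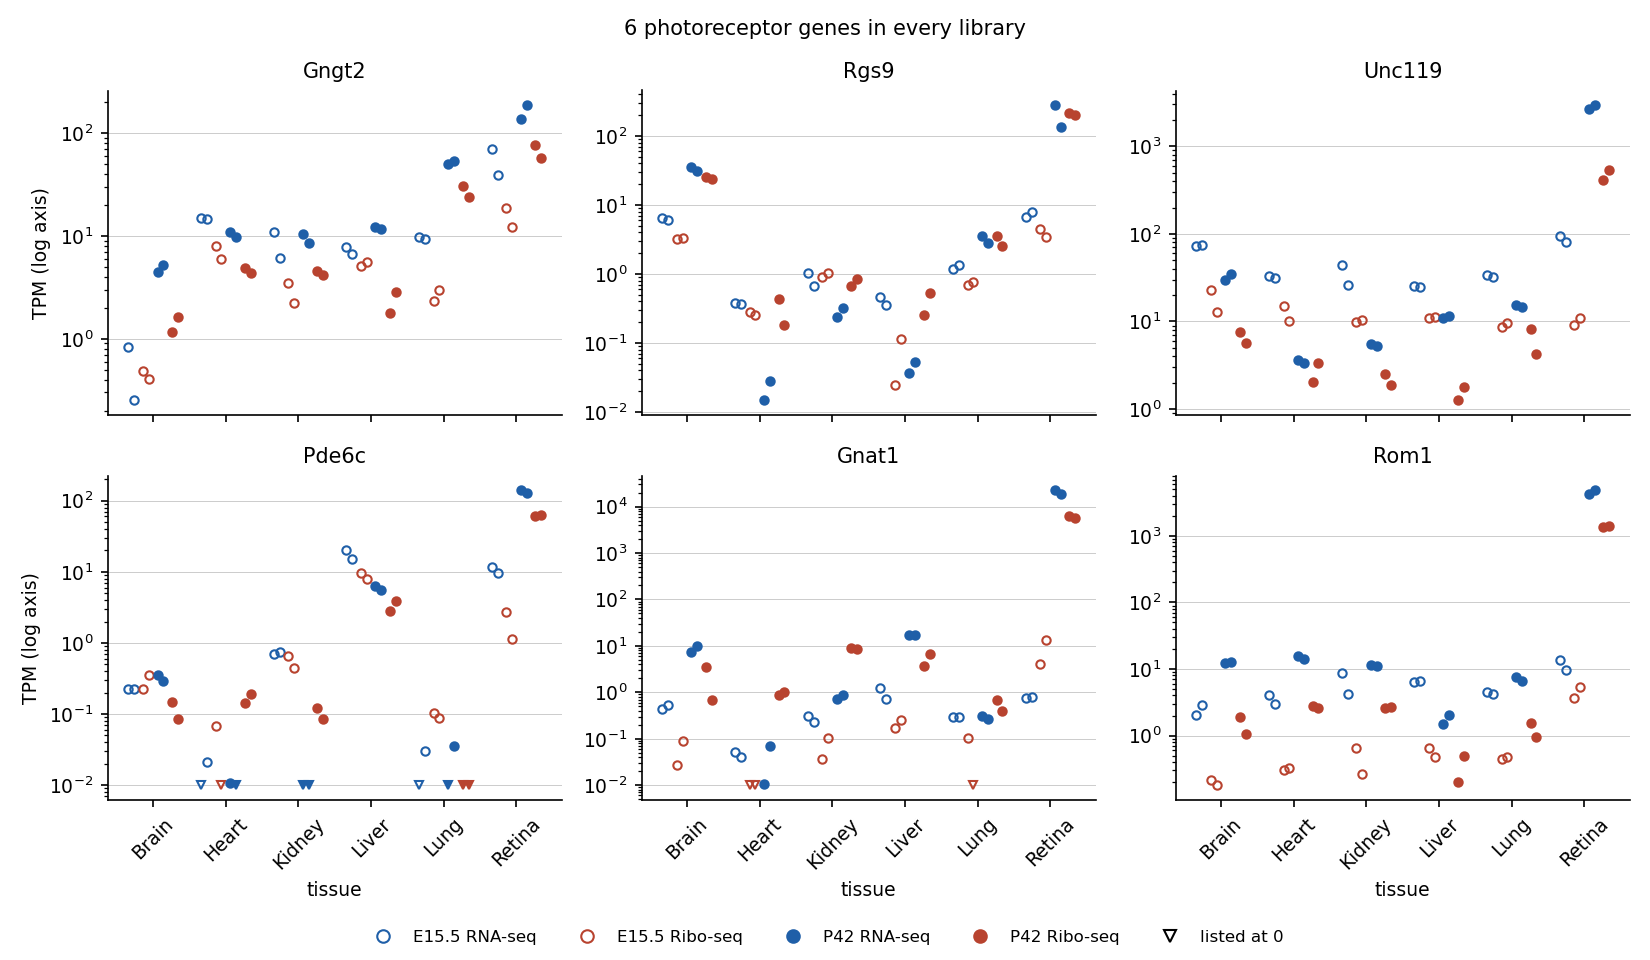
TPM (log axis) of 6 member genes in every library, with E15.5 open and P42 filled, RNA-seq in blue and footprints in red, and triangles for values listed at 0. Unc119 is lower at P42 than at E15.5 in each tissue but retina by RNA-seq, Gngt2 is high in P42 lung, and Pde6c is seen in liver as well as retina.

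Other genes of the photoreceptor pathways, from lists written with earlier results of these data known, moved with the members. Of 12 further genes of the transduction cascade all 12 were called higher at P42 in retina by both assays, with a median RNA-seq difference of 5.27. For this and the next 2 lists, the shares of all tested genes were 18.6% higher and 24.7% lower by RNA-seq. By footprint they were 21.3% and 16.2%. The filter of the stage test held for these lists too. A listed gene with an E15.5 retina mean under 1 TPM, such as Impg1 at 0 and 0 TPM by RNA-seq, could not be called lower. The counts are a description. Rgs9bp, the membrane anchor of RGS9, rose by 8.06 (SE 0.16) by RNA-seq, the PDE6 chaperone Aipl1 by 7.52 (SE 0.17) and the potassium channel subunit Kcnv2 by 7.35 (SE 0.13). The PDE6-binding Pde6d rose least, by 1.22 (SE 0.19). Of 15 genes of the outer segment and cilium, 13 were called higher and 1 lower by RNA-seq, and 12 and 1 of 14 tested by footprint. The matrix proteoglycan gene Impg1 rose by 8.60, Reep6, a gene of membrane traffic, by 7.996 and the microtubule gene Rp1l1 by 6.69, and the small GTPase gene Rab8a fell by 1.19 on the log2 scale. Of 12 genes of the photoreceptor synapse 10 were called higher by RNA-seq and 11 by footprint, led by the vesicular glutamate transporter gene Slc17a7 at 9.35, the complexin gene Cplx4 at 8.38 and the calcium-binding Cabp4 at 7.96.

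The 19 regulators of photoreceptor fate were split, with 7 called higher and 6 lower by RNA-seq and 7 and 5 of 17 tested by footprint. Over all tested genes 18.6% were called higher and 24.7% lower by RNA-seq, and 21.3% and 16.2% by footprint. For the regulators and the markers below the same filter held, so these counts are a description as well. Samd7, at 0.168 and 0.0788 TPM in E15.5 retina by RNA-seq, could not be called lower. Samd7 (log2 7.13), Esrrb (6.93) and Samd11 (3.38) rose, and Onecut1 (-3.90), Notch1 (-3.66) and Prdm1 (-2.31), genes of the progenitor and early precursor stages, fell. Otx2, which acts upstream of Crx, was at a log2 difference of 0.07 (SE 0.18) by RNA-seq. Among the markers of other retinal cells, 8 of 9 bipolar genes and 6 of 8 Müller genes were called higher by RNA-seq and 6 of 8 ganglion cell genes lower, beside the same 18.6% and 24.7% of all tested genes. The highest bipolar markers in P42 retina were Gng13 at 322 and 426 TPM and Pcp2 at 199 and 274 TPM, the highest Müller markers Glul at 1914 and 1990 TPM and Dkk3 at 559 and 631 TPM. The highest ganglion cell markers were Sncg at 463 and 525 TPM and Nefl at 462 and 463 TPM, and the highest amacrine and horizontal markers Calb2 at 597 and 708 TPM and Slc6a9 at 152 and 163 TPM. Lens markers (10 of 15 tested higher) were led by Cryaa at 36.4 and 103 TPM and Crybb2 at 23.7 and 81.2 TPM, and pigment epithelium markers (4 of 11 higher, 1 lower) by Rgr at 29.9 and 44.1 TPM and Rdh5 at 27.3 and 44.1 TPM.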

How the data were processed

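The deposited files are 4 tables of TPM, 1 for each stage and assay, made by the authors from poly(A) RNA-seq and Ribo-seq libraries of frozen tissue lysed with cycloheximide. Per the submitters' processing notes, CASAVA 1.8.2, cutadapt 1.8.1, TopHat2 2.0.14 and featureCounts 1.6.2 were used with GRCm38.p6. The sources used here do not give the annotation release or strand setting. No read counts were used, so depth is unknown. Genes kept had at least 1 TPM in 2 libraries, stage tests also a mean of 1 TPM in the tissue, and ratio tests a mean of 5 TPM by RNA-seq. limma 3.58.1 in R 4.3.3 was fitted on log2(TPM + 1) over all genes and all 6 tissues with a trended variance. P-values were adjusted by Benjamini-Hochberg over all genes, and genes were called at an adjusted p under 0.05 with a log2 difference of 1 or more. The fit was tested on simulated data. Python 3.11.15, numpy 2.4.6, pandas 2.3.3, scipy 1.17.1 and matplotlib 3.10.9 were used for summaries. Members and lists were chosen with earlier results of these data known. Genes named were the members (library values for paralog pairs, cone opsins, regulators, the highest and lowest, and those called outside retina or at E15.5), the 3 largest rises and falls called by both assays in each pathway list, and the 2 highest of each marker list. P-values measure the spread between 2 libraries a group, which may be technical. Other pseudocounts, filters, scalings, left-out libraries and a replicate block were tried.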

Additional observations from a re-analysis of the deposited data

Results flagged for a closer look

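The stage change in retina was compared with that of other tissues by a test of the difference itself in limma. The RNA-seq change was called larger in retina than in the mean of the other tissues for 36 of 38 members, against 34.9% of 17171 tested genes, and the footprint change for 38, against 25.4% of 16715. By RNA-seq 10 of these members, and by footprint 14, passed the filter only through P42 retina, so a larger change in retina was the only call open to them and the counts are a description. In single tissues, the listed values are the retina change minus the change of that tissue on the log2(TPM + 1) scale, for members that rose in retina and fell in the other tissue. Unc119 had RNA-seq differences of 6.14 against brain, 7.85 against heart, 7.42 against kidney, 6.06 against liver and 6.05 against lung. Its footprint differences were 6.67 against brain, 7.28 against heart, 7.21 against kidney and 7.69 against liver. Abca4 had an RNA-seq difference of 8.39 against heart. Against liver the RNA-seq differences were 12.04 for Slc24a1, 9.96 for Rom1, 8.01 for Pde6h, 5.90 for Gnat2 and 4.99 for Pde6c, and the footprint differences 6.65 for Pde6h and 5.65 for Pde6c. No group had the 4 libraries needed to test for a library that stands apart.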

How the results depend on the processing

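With 2 libraries a group and TPM without depth, a low value cannot be given a counting error. Settings added after seeing the data left out members under 1% of P42 retina, or members under 1 TPM by RNA-seq. Stage changes in other tissues gave 14 higher and 11 lower RNA-seq calls in all; this became 6 and 5 with a pseudocount of 4, 5 and 6 with a 5 TPM filter, and 4 and 7 without members under 1%. Centring on the median gene gave 24 and 4, and median-of-ratios scaling 6 lower. By footprint the 15 higher calls became 5 with a pseudocount of 4, 23 without a filter, 2 with a 5 TPM filter and 4 without members under 1%, and the 6 lower became 3 under median-of-ratios scaling. The 13 footprint calls of E15.5 retina became 22 with a pseudocount of 0.25, 4 with 4, and 7 without members under 1 TPM by RNA-seq. Against the message in P42 retina, 6 higher and 0 lower became 2 and 4 with a pseudocount of 4, 0 and 25 without centring, and 1 and 9 without a filter. The change of that ratio with stage gave 2 higher with a pseudocount of 0.25 or equal sums, 0 higher and 1 lower with 4, 0 higher with a 5 TPM filter and 20 lower without one. The cause was not tested. The log2 rod to cone ratio over paired genes alone was 5.11 by RNA-seq and 5.00 by footprint. The summed P42 share was 9.78% without mitochondrial genes and 7.05% of the full TPM total by RNA-seq, and 2.62% of the full total by footprint (0.0120% at E15.5). Without centring, the ratio difference turned for Arr3 (-1.56), Cngb1 (-1.56), Gnat2 (-1.24), Gngt1 (-0.062), Gngt2 (-1.27), Guca1a (-1.24), Gucy2f (-1.14), Opn1sw (-1.35), Pdc (-0.54), Pde6a (-0.59), Pde6b (-1.20), Pde6c (-1.11), Pde6h (-1.24), Rdh12 (-1.53), Rp1 (-0.55) and Sag (-0.69). Abca4 in heart turned to 0.45 when centred, and Unc119 to 0.017 in liver and 0.17 in lung under median-of-ratios scaling and 0.018 in lung when centred.

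Leaving out 1 retina library gave 29 to 37 RNA-seq and 26 to 38 footprint calls for the retina stage change, 28 to 37 and 26 to 38 for its difference from other tissues, 30 and 26 against each tissue at P42, and 9 and 12 at E15.5. Fewer members pass a 2-library filter then. The P42 ratio gave 5 to 9 higher and 0 to 1 lower, and its stage change 1 to 4. The log2 rod to cone ratio ran from 4.04 to 4.25 by RNA-seq and 3.60 to 4.08 by footprint. The summed share ran from 7.84% to 8.08% and 9.11% to 10.5% at P42, and 0.0470% to 0.0567% and 0.0403% to 0.0549% at E15.5. Whether replicate numbers pair the samples is unknown. Correlations of RNA-seq with footprint deviations ran from -0.19 to 0.33. They cannot decide it, since the E15.5 and P42 retina RNA-seq libraries, which share no animal, gave -0.41. A replicate block left the counts at 37 and 38 for the retina stage change.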
